A study of Mus musculus with 12 samples.

Results

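The 9 genes described here, Mbp, Mog, Mag, Mobp, Cnp, Cldn11, Myrf, Opalin and Ermn, encode structural proteins of central myelin and a transcription factor of the cells that make it. They were listed by name as genes known for this role, with earlier results of these libraries already known, and all 9 of them were found among the 55487 genes of the table by identifier and symbol. RNA was sequenced from brain and liver of 6 mice, 3 knockouts for Mettl5 (KO), which are mice A, C and F, and 3 labelled wild type (WT), which are mice B, D and E, so each of the 4 groups held 3 libraries from separate mice. METTL5 is the methyltransferase that places an m6A mark on 18S rRNA. The KO allele came from a line in which exon 2 was flanked by loxP sites, made in embryonic stem cells of a hybrid between C57bl/6 and another strain, bred to B6 and then to a CMV-cre line that deletes the exon throughout the body. The labels call the controls WT, while the study's text gives the control mice of this RNA sequencing as heterozygous for Mettl5, set against the KO mice as 3 pairs. No label gives these pairs. The study's supplement titles the same data as knockout versus wild type, so its wording is not uniform. WT stands here for the label only. The labels give no age or sex. The study's methods give a range from 4 weeks to 6 months and animals of both sexes, and name no brain region that was sampled.

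Oligodendrocytes wrap axons of the brain and spinal cord in compacted membrane, which insulates the axon and leaves short gaps, the nodes, where the current is renewed. Their precursors leave the cell cycle, switch on the transcription factor MYRF under control of SOX10, and then make myelin proteins in large amounts. White matter is unevenly spread, so the amount of myelin RNA in a piece of brain depends on which regions it holds. In bulk tissue fewer oligodendrocytes and less RNA per oligodendrocyte cannot be told apart.

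The stretches upstream of these genes are shown first because SOX10 and MYRF are known as their regulators. RefSeq promoters on GRCm38.p6 were found for 7 of the 9 genes (Mog, Mag, Mobp, Cnp, Cldn11, Opalin and Ermn), and the 200 bases that end 50 bases before the start of transcription were searched on both strands. A SOX core, ACAAAG or ACAATG, stood in 5 of these 7 windows and in 21.2% of the 32851 windows of all genes. A MYRF-type motif, CTGGTAC or CTGGCAC, stood in 3 of the 7 windows (Mog, Mag and Cnp) and in 4.80% of all windows. The E-box CAGCTG and the TATA box TATAAA were in 0 of the 7 windows, against 10.3% and 9.10% of all windows. The 7 windows were 1 per gene, at the RefSeq start nearest its annotated start, while the 32851 windows held every start of a gene. Mag had 3 such starts, and only the nearest was searched. In the windows printed here no pair of matches shared a base, and a match is a description of the letters only. The 3 windows with a MYRF-type motif are printed with the window of Mobp, which held 6 SOX cores. They are at chr17:37023449-37023648 on the minus strand for Mog, chr7:30914914-30915113 on the minus strand for Mag, chr11:100574689-100574888 on the plus strand for Cnp and chr9:120149492-120149691 on the plus strand for Mobp. Each is written 5′ to 3′ along the strand of its gene, with matches to either motif on either strand in capitals.
Mog: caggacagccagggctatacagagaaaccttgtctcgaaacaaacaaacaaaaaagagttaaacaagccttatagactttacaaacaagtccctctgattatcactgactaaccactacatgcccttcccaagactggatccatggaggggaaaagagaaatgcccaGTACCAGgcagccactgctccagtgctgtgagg
Mag: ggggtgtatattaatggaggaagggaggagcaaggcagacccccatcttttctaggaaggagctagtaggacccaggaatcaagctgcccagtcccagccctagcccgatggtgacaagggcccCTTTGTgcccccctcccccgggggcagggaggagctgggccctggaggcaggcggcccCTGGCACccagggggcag
Cnp: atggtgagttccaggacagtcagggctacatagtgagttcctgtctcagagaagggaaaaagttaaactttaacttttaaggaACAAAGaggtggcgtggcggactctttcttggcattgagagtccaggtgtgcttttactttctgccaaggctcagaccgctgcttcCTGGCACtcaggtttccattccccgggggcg
Mobp: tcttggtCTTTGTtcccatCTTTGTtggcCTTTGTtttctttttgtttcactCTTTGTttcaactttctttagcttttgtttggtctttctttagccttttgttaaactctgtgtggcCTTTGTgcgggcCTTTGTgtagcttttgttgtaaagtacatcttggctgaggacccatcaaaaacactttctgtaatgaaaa
In the window of Mog the motif reads GTACCAG, the other strand of CTGGTAC, and in those of Mag and Cnp it reads CTGGCAC. The SOX core reads CTTTGT, the other strand of ACAAAG, in Mag and in all 6 copies of Mobp, and ACAAAG in Cnp. The windows of Opalin and Ermn held 1 SOX core each and that of Cldn11 held none of the 4 motifs.

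Library totals ran from 14403309 to 18365114 counts in brain and from 16145754 to 21623180 in liver. Mettl5 was lower in every KO library than in every WT library of the same tissue, at 3.70 ± 0.328 against 6.66 ± 2.14 CPM (read counts scaled to a common library size, mean ± SD, n = 3) in brain, a log2 fold change of -0.84 (SE 0.27, adjusted p = 0.373). In brain, 11 of 17188 genes tested were called between genotypes (edgeR, adjusted p under 0.1), all higher in KO. Mice B, D, A and C had Y-linked transcripts and mice E and F had almost none, so each genotype held 1 mouse of the latter kind. The share of counts on the mitochondrial rRNAs was 7.63% to 17.7% in WT brain and 21.4% to 31.6% in KO brain, and 8 of 12 olfactory bulb transcripts were called higher in KO brain, as described further on. Together the 9 genes took 0.239% to 0.304% of the counts of a WT brain library and 0.200% to 0.251% of a KO one. With mitochondrially encoded genes left out of the total, the shares were 0.276% to 0.335% and 0.263% to 0.328%. As TMM-scaled CPM (CPM with the library size adjusted by edgeR's trimmed mean of M-values), the 9 genes summed to 2206 to 2689 in WT and 2052 to 2603 in KO brain. The log2 ratio of the mean sums, KO over WT, was -0.04 with this scaling and -0.28 with plain library totals.

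None of the 9 genes was called between KO and WT brain. In all genes tested 0.0640% were called, and 11.0% had an unadjusted p under 0.05, a limit that 0 of the 9 genes passed by edgeR. DESeq2, run as an alternative test, called 267 of 17567 genes and none of the 9. For 0 of the 9 genes did the 3 KO libraries all lie above or all below the 3 WT libraries, which they did for 16.3% of all genes tested. The log2 fold change, KO minus WT, was above 0 for 4 genes (Mog, Mobp, Opalin and Ermn) and below 0 for 5 (Mbp, Mag, Cnp, Cldn11 and Myrf), with a median of -0.13 over the 9, beside a median of -0.0016 over all genes tested. Single mice moved this median, to -0.19 without mouse A, -0.21 without B, -0.032 without D and -0.024 without F, and the split became 2 above and 7 below 0 without A and 3 above and 6 below 0 without E.

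Mbp encodes myelin basic protein, which holds the cytoplasmic faces of the myelin membrane together, and it had the highest level of the 9. Its gene (ENSMUSG00000041607.17) lies at chr18:82475146-82585637 on the plus strand of mm10. Mbp stood at 1310, 1579 and 1152 TMM-scaled CPM in the WT brains B, D and E, and at 1184, 1381 and 944 in the KO brains A, C and F. The groups overlap, with mouse D highest and mouse F lowest of the 6. Between genotypes the log2 fold change was -0.20 with an SE of 0.19, a 95% interval from -0.62 to 0.22 and an adjusted p of 0.672. It was -0.34 without mouse C, -0.078 without mouse D and -0.071 without mouse F.

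Mobp encodes a small basic protein of compact myelin that is abundant in oligodendrocytes. Its gene (ENSMUSG00000032517.16, chr9:120149707-120181484, plus strand) shares 2447 bases with the annotated gene Gm38642 on the same strand, so reads there could not be given to 1 gene with certainty. The WT brains B, D and E had 746, 561 and 599 CPM of Mobp and the KO brains A, C and F had 853, 768 and 729. Only the lowest KO value lay below a WT value, that of mouse B. Its log2 fold change was 0.30 with an SE of 0.16, a 95% interval from -0.05 to 0.65, an unadjusted p of 0.0853 and an adjusted p of 0.493.

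Cnp encodes 2′,3′-cyclic nucleotide 3′-phosphodiesterase, an enzyme of the non-compact myelin channels. The gene (ENSMUSG00000006782.16, chr11:100574904-100591729, plus strand) overlaps Dnajc7 on the opposite strand over 8912 bases, and the counting used strand. Cnp had 171, 221 and 193 CPM in WT brains B, D and E, and 209, 175 and 153 in KO brains A, C and F. Mouse D was highest and mouse F lowest, with the other values interleaved. A log2 fold change of -0.13 (SE 0.16) was found, with a 95% interval from -0.49 to 0.23 and an adjusted p of 0.764. Without single mice it was -0.25 (A), -0.21 (B), -0.032 (D) and -0.024 (F).

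Cldn11 encodes the claudin that forms the tight junction strands of central myelin. The gene (ENSMUSG00000037625.7) is at chr3:31149920-31164324 on the plus strand. Its CPM were 31.6, 37.3 and 32.6 in the WT brains B, D and E, and 30.4, 33.6 and 25.7 in the KO brains A, C and F. KO mouse C lay above WT mice B and E, and KO mouse F was lowest. KO minus WT gave a log2 fold change of -0.18 (SE 0.15), with a 95% interval from -0.52 to 0.16 and an adjusted p of 0.648. Leaving out mouse C gave -0.27, mouse D -0.11 and mouse F -0.081.

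**Figure D1:**
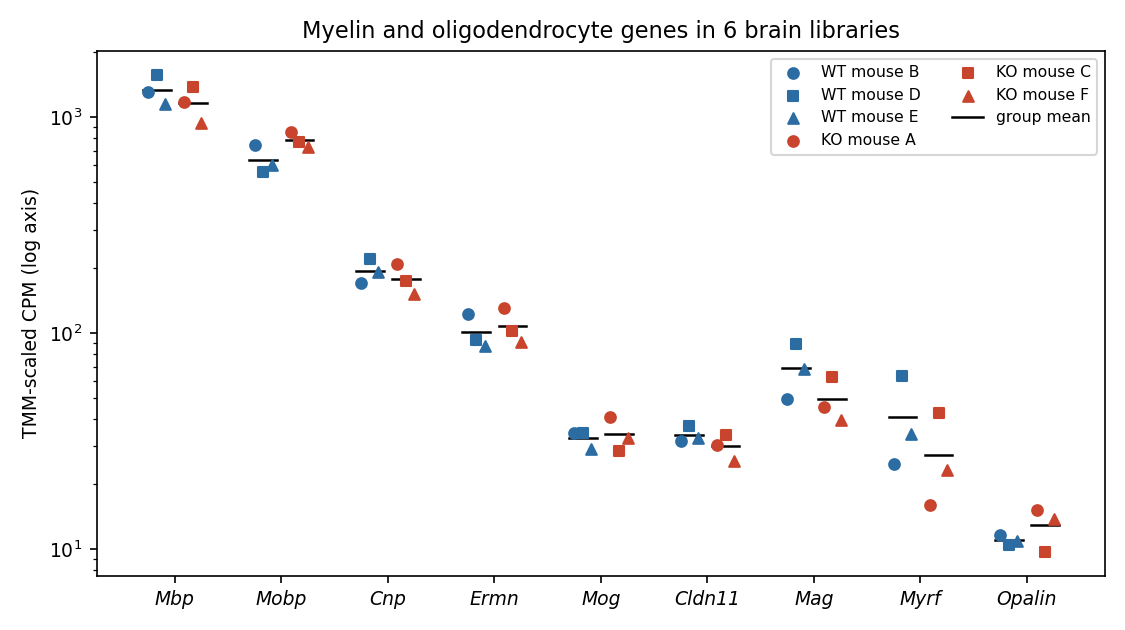
TMM-scaled CPM on a log axis for each of the 9 genes, ordered by their level per length in WT brain, in the 3 WT brain libraries (blue, mice B, D and E) and the 3 KO brain libraries (red, mice A, C and F). Each symbol is 1 library and each black line a group mean; the WT and KO symbols overlap in height for every gene, and the points of Myrf are the most spread.

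Mag and Mog encode adhesion proteins of the immunoglobulin family, the first on the innermost myelin membrane that faces the axon, the second on the outermost surface of the sheath. Mag (ENSMUSG00000036634.15, chr7:30899176-30914873, minus strand) had 49.5, 89.0 and 68.0 CPM in WT brains B, D and E, and 45.4, 62.9 and 39.7 in KO brains A, C and F. The KO value of mouse C exceeded the WT value of mouse B, so the groups overlap, and mouse D stood highest. For Mag the log2 fold change was -0.48 (SE 0.24), with a 95% interval from -1.02 to 0.06, an unadjusted p of 0.0732 and an adjusted p of 0.479 (edgeR). With no filter on low counts the adjusted p of Mag (edgeR) was 0.0725 at a log2 fold change of -0.51. In that fit 1000 of 31780 genes tested were called. Over the alternatives the adjusted p of Mag ran from 0.0725 to 0.990. Leaving out mouse D gave a log2 fold change of -0.26 for Mag, and leaving out mouse C gave -0.70.

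Mog (ENSMUSG00000076439.12, chr17:37010743-37023398, minus strand) stood at 34.5, 34.5 and 29.2 CPM in WT brains B, D and E, and at 41.1, 28.6 and 32.8 in KO brains A, C and F. The KO libraries held the highest and the lowest value of the 6. For Mog the log2 fold change was 0.06 (SE 0.17), with a 95% interval from -0.31 to 0.43 and an adjusted p of 0.900. It became -0.093 without mouse A and -0.0085 without mouse E, and otherwise ran from 0.088 without mouse F to 0.17 without mouse C.

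Myrf encodes the membrane-bound transcription factor that oligodendrocytes need in order to mature and keep their myelin genes on. The gene (ENSMUSG00000036098.15, chr19:10208272-10240748, minus strand) had 24.9, 63.4 and 34.3 CPM in WT brains B, D and E, and 15.9, 42.7 and 23.3 in KO brains A, C and F. Myrf varied more between mice than any other of the 9 genes, with a coefficient of variation of 49.2% in WT and 50.7% in KO, and the highest library held 3.98 times the level of the lowest. Mice D and C were highest of their groups, and the groups overlap. The log2 fold change of -0.58 had an SE of 0.42 and a 95% interval from -1.54 to 0.38, with an adjusted p of 0.601. Omitting mouse A gave -0.31, omitting mouse D gave -0.12 and omitting mouse C gave -1.06.

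Opalin encodes a transmembrane sialoglycoprotein found in central myelin, and Ermn encodes ermin, an actin-binding protein of mature oligodendrocytes. Opalin (ENSMUSG00000050121.9, chr19:41061710-41077113, minus strand) had the lowest CPM, at 11.6, 10.4 and 10.9 in WT brains B, D and E and 15.1, 9.71 and 13.8 in KO brains A, C and F. Mice A and F were above the WT range and mouse C below it. The log2 fold change of Opalin was 0.23 (SE 0.20), with a 95% interval from -0.21 to 0.67 and an adjusted p of 0.652, and it was 0.099 without mouse A and 0.39 without mouse C. Ermn (ENSMUSG00000026830.9, chr2:58045113-58052864, minus strand) had 122, 93.0 and 87.2 CPM in WT brains B, D and E, and 130, 102 and 91.4 in KO brains A, C and F. The 2 groups interleave, and mice A and B were the highest of each. The log2 fold change of Ermn was 0.10 (SE 0.18), with a 95% interval from -0.31 to 0.50 and an adjusted p of 0.841, and it was -0.060 without mouse A, 0.038 without D, 0.0087 without E, 0.26 without B and 0.2 without F.

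**Figure D2:**
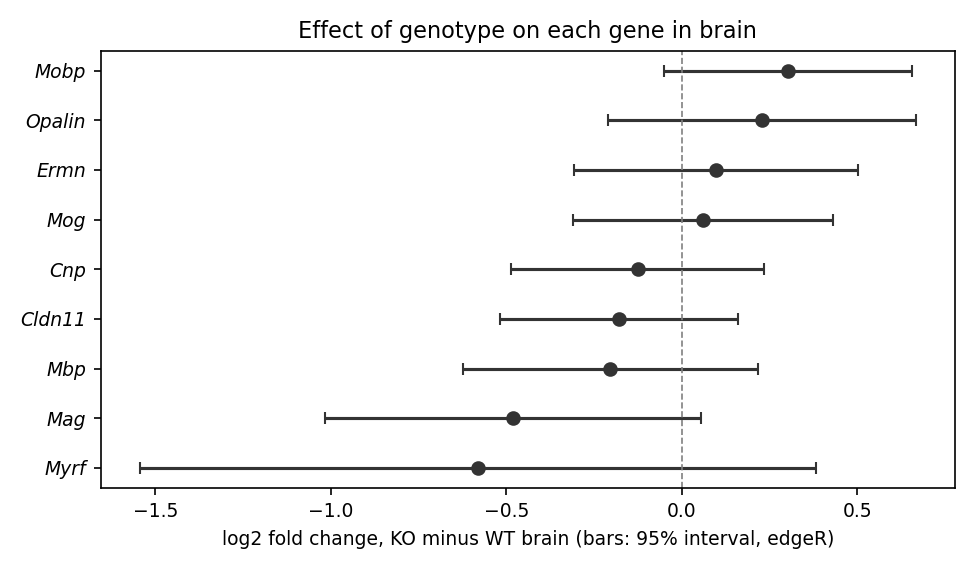
Log2 fold change of KO minus WT brain for the 9 genes, ordered by size, with 95% intervals from edgeR (3 libraries a group). Every interval spans 0; the point estimates run from -0.58 for Myrf to 0.30 for Mobp.

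The limits of the intervals give the changes that these 6 libraries leave within reach. The widest interval was that of Myrf, from -1.54 to 0.38, and the narrowest was that of Cldn11, from -0.52 to 0.16. A change of log2 1 in either direction lay outside the 95% interval for 7 of the 9 genes, the exceptions being Myrf and Mag.

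The order of levels was set per length of exon, as RPKM (TMM-scaled CPM per kilobase of exon) in WT brain. Mbp came first at 159 ± 25.5 (SD, n = 3), then Mobp at 92.8 ± 14.3, Cnp at 53.6 ± 6.88 and Ermn at 27.8 ± 5.19. The libraries of each of these 4 genes did not overlap with those of the next. Mog followed at 19.2 ± 1.80 RPKM, Cldn11 at 18.1 ± 1.64 and Mag at 16.9 ± 4.85, and neighbours among these 3 overlapped. Myrf at 4.77 ± 2.34 and Opalin at 3.73 ± 0.199 RPKM came last and overlapped too. The transcription factor thus stood at the level of the scarcest of the membrane proteins.

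The 9 genes did not vary together over the 6 brain libraries. Pearson correlations of log2 CPM over the 6 libraries, given as a description, were 0.94 for Mbp with Cldn11, 0.92 for Mag with Cldn11 and 0.90 for Mag with Myrf. They were -0.87 for Myrf with Opalin and -0.78 for Mag with Mobp. These libraries share depth and base composition differences, so the pairs are not separate evidence.

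The genes with a log2 fold change below 0 were mostly those richer in G and C, though none of the 9 changes passed the test, and the part that base composition had in them was not tested beyond the fit with an offset for it. Length-weighted over the annotated transcripts, GC content was 57.5% for Myrf, 56.7% for Mag, 54.7% for Cnp and 54.5% for Mbp, all with a log2 fold change below 0, and 50.9% for Cldn11, also below 0. It was 51.6% for Mobp, 50.4% for Mog, 46.5% for Opalin and 38.0% for Ermn, the 4 genes above 0. Over the 9 genes the log2 fold change had a Pearson r of -0.66 and a Spearman rho of -0.75 with GC content, as a description across genes, which are not independent replicates. Over 16647 genes tested with a GC content, r was -0.37 and rho -0.42. The median log2 fold change of all genes fell from 0.39 under 40% GC to -0.17 at 56% and above.

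**Figure D3:**
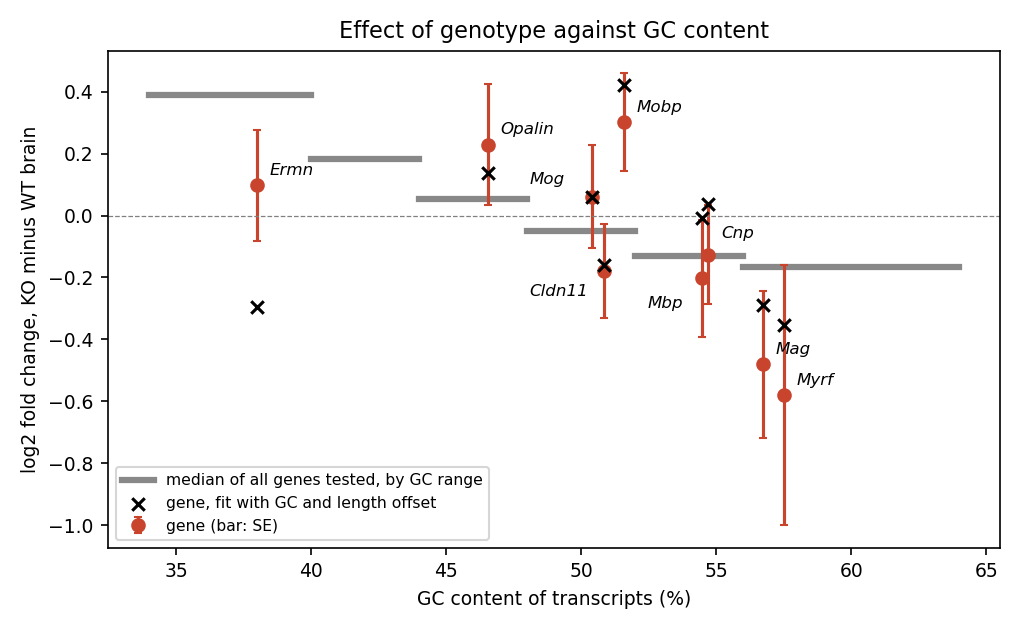
Log2 fold change of KO minus WT brain against GC content of the transcripts. Red points are the 9 genes with their SE, crosses are the same genes fitted with an offset for GC content and gene length, and grey bars are the medians of all genes tested in each GC range (the outermost ranges are open-ended). The 4 genes above 54% GC lie below 0, and the crosses span a narrower range at that end.

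Each brain library also had its own slope of log2 level on GC content. Over all genes tested, the slopes per 10 points of GC were -0.11, 0.34 and 0.12 for WT mice B, D and E, and -0.28, 0.08 and -0.15 for KO mice A, C and F. Mouse D, with the steepest rise, was highest of the 6 in Mbp, Mag, Cnp, Cldn11 and Myrf, and mouse A, with the steepest fall, was lowest in Myrf and highest in Mog, Mobp, Opalin and Ermn. Mouse C had the highest slope among KO mice and the highest KO value of Mbp, Mag, Cldn11 and Myrf. In a fit with an offset for GC content and length in each library, the 9 log2 fold changes ran from -0.35 for Myrf to 0.42 for Mobp with a median of -0.0068, and none was called. Mag stood at -0.29 in that fit (adjusted p = 0.434), Mbp at -0.0068, Cnp at 0.037 and Ermn at -0.29, so that Cnp and Ermn were on the other side of 0.

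**Figure D4:**
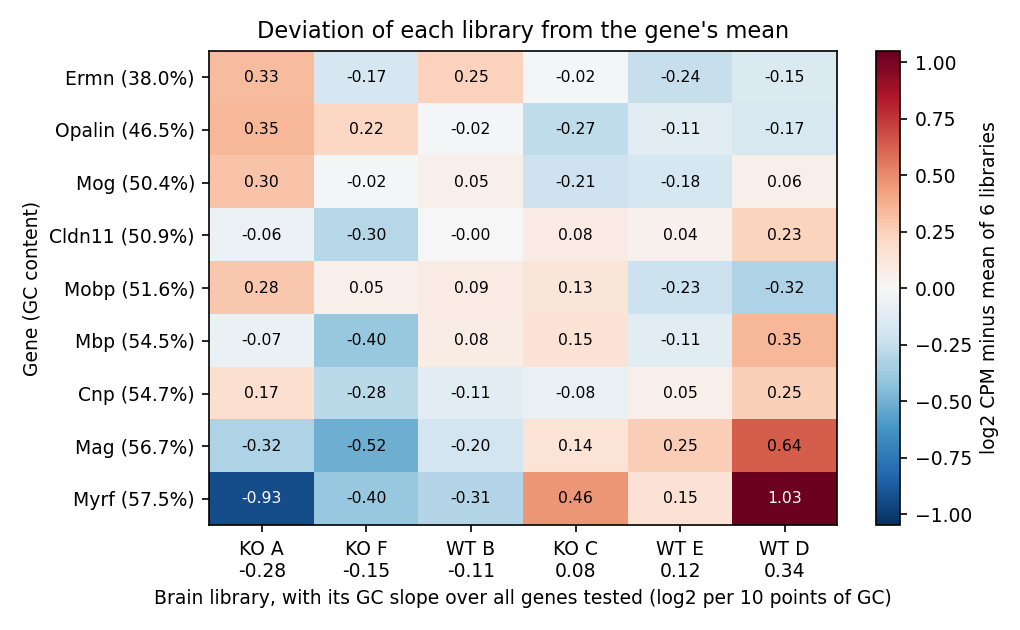
Deviation of each brain library from the gene's mean over the 6 libraries, in log2 CPM, with genes ordered from low to high GC content downwards and libraries from the lowest to the highest GC slope. Mice A and D, at the ends, have opposite signs for Myrf (-0.93 and 1.03), Mag and Mobp, among others, while Cnp and Mog are above their means in both.

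In the wider lineage, a further 25 genes of mature oligodendrocytes and myelin were all tested. None was called, 5 were above 0 and 20 below 0, at a median of -0.18 on the log2 scale, and 4 of them had an unadjusted p under 0.05, all lower in KO, beside 5.01% of all genes tested that were lower in KO at that limit. These 4 were Cryab (a small heat shock protein, log2 fold change -0.53, SE 0.15, adjusted p = 0.345), Adamts4 (a metalloprotease, -0.56, SE 0.17, adjusted p = 0.355), Tmem88b (-0.38, SE 0.16, adjusted p = 0.427) and Trf (transferrin, -0.59, SE 0.24, adjusted p = 0.432). Cryab stood at 43.4 ± 4.90 CPM in WT and 30.2 ± 2.92 in KO (SD, n = 3). Summed over the 25 genes, the libraries held 1874 to 2483 CPM in WT and 1683 to 1952 in KO brain, so the ranges overlap.

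Of 12 enzymes of myelin lipid synthesis, 4 were above and 8 below 0 with a median of -0.17, and 0 of them were called or had an unadjusted p under 0.05 by edgeR. The smallest p-values were those of Degs1, a dihydroceramide desaturase (-0.32, SE 0.18, adjusted p = 0.527), and Fa2h, the fatty acid 2-hydroxylase of myelin galactolipids (-0.53, SE 0.31, adjusted p = 0.530). Of 14 genes of oligodendrocyte precursors and newly formed oligodendrocytes, 5 were above and 9 below 0 with a median of -0.16. Lhfpl3 (0.45, SE 0.19, adjusted p = 0.425) and Vcan, the proteoglycan versican (0.38, SE 0.17, adjusted p = 0.455), had an unadjusted p under 0.05, as did 5.96% of all genes tested in that direction, and no gene of the list was called. Of 10 axonal proteins of the node and its flanks, 2 were above and 8 below 0 with a median of -0.18. The potassium channel gene Kcna1 (-0.34, SE 0.15, adjusted p = 0.448) had an unadjusted p under 0.05, Cntn2, the axonal contactin TAG-1, stood at -0.77 (SE 0.36, adjusted p = 0.464), and none was called. Of the Schwann cell genes, 4 were tested with a median of -0.023 and none was called, with Ngfr at -0.66 (SE 0.29, unadjusted p = 0.0464, adjusted p = 0.448) and Sox2, which is not particular to these cells, at 0.18 (SE 0.14, adjusted p = 0.633).

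**Figure D5:**
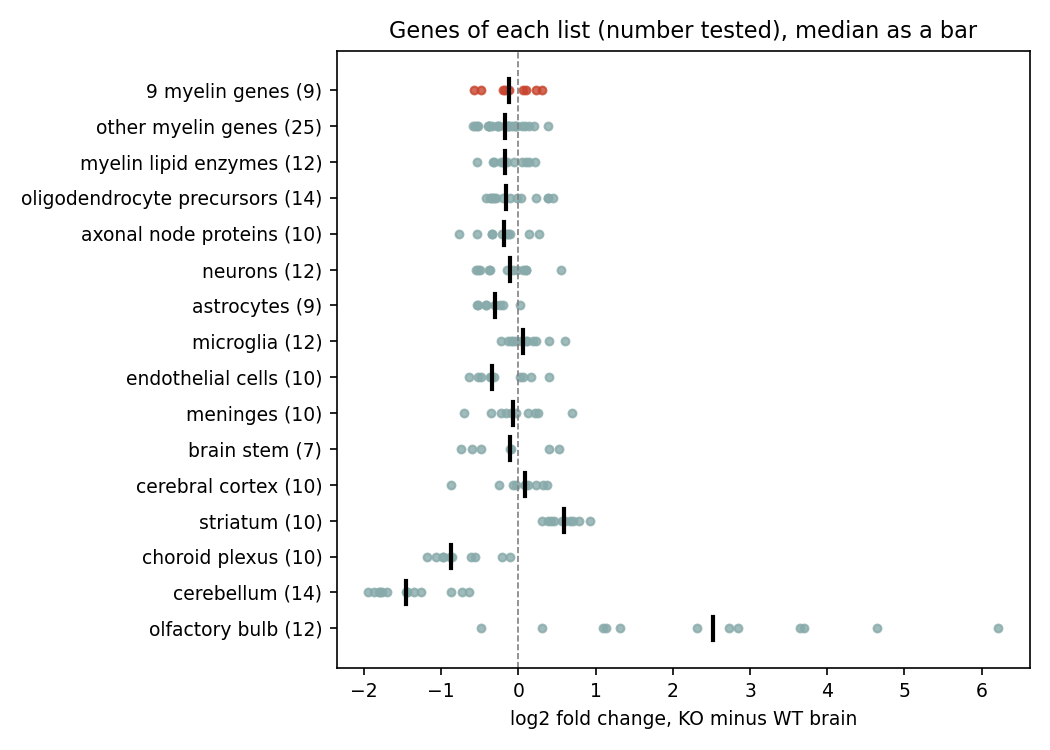
Log2 fold change of KO minus WT brain for the genes of each list, with the number tested in brackets, the 9 myelin genes in red, other lists in grey and the median as a black bar. The medians of the 9 genes and of the other myelin, myelin lipid, oligodendrocyte precursor and axonal node lists lie between -0.13 and -0.18. Those of the astrocyte (-0.31), endothelial (-0.34), cerebellum (-1.45), choroid plexus (-0.87), striatum (0.59) and olfactory bulb (2.52) lists lie farther from 0.

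Markers of the olfactory bulb were called higher in KO in the same libraries, the other region lists held no called gene, and the part that the regions sampled had in the values of the 9 genes was not tested. Of 12 olfactory bulb genes 8 were called higher in KO, as were 0.0640% of all genes tested, led by Omp (log2 fold change 3.70, SE 0.32, adjusted p = 0.00674) and S100a5 (6.21, SE 0.56, adjusted p = 0.00674). In all, only 2 genes were called without mouse E, 3 without B and 4 without D, so these 8 calls did not all hold there. All 14 cerebellar genes were lower in every KO library than in every WT library, as were 7.94% of all genes tested, with a median of -1.45. None was called, and 13 had an unadjusted p under 0.05 (5.01% of all genes tested were lower in KO at that limit), among them Calb1 (log2 fold change -0.73, SE 0.17, adjusted p = 0.320). Their summed CPM were 1251 to 1949 in WT and 329 to 849 in KO brain. The 10 choroid plexus genes were below 0, 7 of them with an unadjusted p under 0.05 and 5 lower in every KO library than in every WT library, with sums of 580 to 824 in WT and 355 to 431 in KO, Clic6 and Ttr having the smallest p-values (adjusted p = 0.320 for both). The 10 striatal genes were above 0 with a median of 0.59, Tac1 at 0.92 and Rgs9 at 0.79 having the smallest p-values (adjusted p = 0.400 and 0.495). Of 16 genes of brain stem and spinal cord, which are rich in white matter, 7 passed the filter on low counts, with a median of -0.11, and the list summed to 4.82 to 40.8 CPM in WT and 5.34 to 26.1 in KO brain. Slc6a5 stood at -0.74 (SE 0.77, adjusted p = 0.705) and Chat at 0.40 (SE 0.43, adjusted p = 0.716). The 10 genes of cerebral cortex had a median of 0.09, with Bhlhe22 at -0.87 (adjusted p = 0.320) and Rorb at 0.37 (adjusted p = 0.499).

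For other cell classes and in the lists that follow, no gene was called. The median log2 fold change was -0.11 over 12 neuronal genes (Gad2 at 0.55, adjusted p = 0.355, and Stmn2 at -0.38, adjusted p = 0.377), -0.31 over 9 astrocyte genes (S100b at -0.54, adjusted p = 0.365, and Slc1a3 at -0.42, adjusted p = 0.415) and 0.06 over 12 microglial genes (P2ry12 at 0.60, adjusted p = 0.464, and Trem2 at 0.40, adjusted p = 0.568). It was -0.34 over 10 endothelial genes (Slco1a4 at 0.40, adjusted p = 0.411, and Flt1 at -0.52, adjusted p = 0.470) and -0.07 over 10 meningeal genes (Serping1 at -0.70, adjusted p = 0.478, and Ogn at 0.70, adjusted p = 0.583). S100b is made by oligodendrocytes as well as astrocytes. Of the 9 astrocyte genes 1 was above and 8 below 0. An unadjusted p under 0.05 (edgeR) was found for 3 of them, all lower in KO, as for 5.01% of all genes tested. Of 8 hepatocyte genes 5 were tested in brain, with a median of -0.63, Ttr, which is also in the choroid plexus list, at -0.97 (adjusted p = 0.320) and Apoa1 at -1.10 (adjusted p = 0.392). The mitochondrial rRNAs mt-Rnr2 and mt-Rnr1 stood at 1.28 and 1.21 (adjusted p = 0.355 for both), and the Y-linked genes Uty and Kdm5d at 0.41 and 0.23 (adjusted p = 0.95 and 0.972).

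Liver, which has no oligodendrocytes, served as the check of the names. Raw counts of Mog, Cldn11 and Opalin were 0 in all 6 liver libraries. Ermn had 0, 1 and 0 counts in WT livers B, D and E and 1, 0 and 1 in KO livers A, C and F, and Mobp had 2, 1 and 3 and then 5, 4 and 2. Mag had 4, 5 and 5 counts in the WT livers and 4, 0 and 7 in the KO livers. Mbp had 21, 14 and 38 counts in WT and 44, 11 and 32 in KO livers, Cnp had 317, 236 and 195 and then 254, 255 and 303, and Myrf had 1019, 658 and 692 and then 879, 1015 and 706.

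In WT mice, Mbp, Cnp and Myrf had enough counts to be tested in liver as well. Of these 3, Mbp (log2 fold change, brain minus liver, 9.24, SE 0.38, adjusted p = 6.57e-09) and Cnp (3.10, SE 0.20, adjusted p = 1.74e-07) were called higher in brain by edgeR, as were 42.9% of the 17694 genes tested. The other 6 genes passed the filter on low counts through the brain libraries alone, so their levels are given without a test. Against a floor of 3 counts per library, brain held at least 119-fold more Mog, at least 123-fold more Cldn11 and at least 39.8-fold more Opalin, in CPM scaled over the 6 WT libraries. The ratio of mean CPM was 3532 for Mobp on 6 liver counts, with a counting interval (95%, exact Poisson on the liver counts) from 1623 to 9623, and 2960 for Ermn on 1 liver count, with an interval from 531 to 116914. It was 611 for Mbp (interval 486 to 779), 159 for Mag (interval 94.9 to 291) and 8.59 for Cnp (interval 8.0 to 9.2). These intervals cover counting error only.

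Myrf went the other way, with 33.0 ± 16.1 CPM in WT brain and 57.9 ± 9.30 in WT liver on the same scale (SD, n = 3). The log2 fold change, brain minus liver, was -0.81 (SE 0.30, 95% interval -1.48 to -0.13), and Myrf was called lower in brain (edgeR, adjusted p = 0.0331), as were 35.4% of all genes tested. Per library, Myrf had 20.2, 51.1 and 27.8 CPM in WT brains B, D and E, and 68.4, 54.5 and 50.7 in the livers of the same mice. Brain D lay just above liver E, so the tissues overlap. The call was lost without mouse B (-0.38, adjusted p = 0.300) and without mouse E (-0.79, adjusted p = 0.111), and without mouse D the value was -1.32 (adjusted p = 0.000798). The 3 KO mice in place of the WT mice gave -1.54 (adjusted p = 0.0024).

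Between KO and WT liver 0 of 14075 genes tested were called by edgeR (0% of them), 1032 had an unadjusted p under 0.05, and DESeq2 called 171. Of the 9 genes, Mbp, Cnp and Myrf passed the filter on low counts. Their log2 fold changes were 0.25 (SE 0.55, adjusted p = 0.965) for Mbp, 0.09 (SE 0.17, adjusted p = 0.956) for Cnp and 0.13 (SE 0.19, adjusted p = 0.938) for Myrf. The libraries overlapped for all 3.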

How the data were processed

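Total RNA of brain and liver from 3 KO and 3 WT mice was made into stranded libraries (SMARTer Stranded Total RNA-Seq Kit v2) and sequenced as single-end reads. Per the submitters' processing notes and the study's methods, reads were checked with FastQC 0.11.5, trimmed with Trimmomatic, aligned to mm10 with STAR 2.7.3a and counted by featureCounts with its setting for reverse-stranded reads. The authors deposited 1 table of raw counts per gene, with no normalisation, in 12 columns.

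Counts were tested with edgeR 4.0.16 in R 4.3.3: TMM scaling, filterByExpr, robust quasi-likelihood fits within each comparison's 6 libraries, and Benjamini-Hochberg adjustment over all genes tested, with a call at an adjusted p under 0.1. DESeq2 1.42.0, the study's tool, was an alternative, as were other scalings, no filter on low counts, a covariate for Y-linked transcripts, an offset for GC content and length, and each mouse left out in turn. SE came from the F statistic. The scripts were tested on simulated counts in which the spread between libraries was capped. That setting does not cover genes as variable between mice as Myrf. Genotype p-values measure the spread between 3 mice a group.

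The 9 genes and the other gene lists were chosen with earlier results of these data known. All 9 genes are named, with the 2 genes of the smallest p in each list (1 of them is not reported here), and the 8 genes closest to the 9 over the brain libraries. GC content is the length-weighted mean over GENCODE transcripts, for 54349 genes with a symbol. Promoters are from RefSeq (GRCm38.p6). Brain and liver are paired by mouse through the labels. Deviations of a mouse's libraries from their group means correlated from -0.06 to 0.13 over 12574 genes. With 3 mice a group, the depth of 14403309 to 21623180 counts limits a gene at a few counts, and floors and counting intervals cover counting error only.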

Additional observations from a re-analysis of the deposited data

How the results depend on the processing

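The count of genes called between KO and WT brain was 11 of 17188 tested with edgeR and 267 of 17567 with DESeq2. It was 1000 of 31780 with no filter on low counts and 80 of 16647 with an offset for GC content and length. With single mice left out it ran from 2 of 17576 without mouse E to 23 of 17752 without mouse C. In liver, 0 genes by edgeR became 171 with DESeq2, 443 with no filter, 82 with the Y-linked covariate and 3 with all 12 libraries in 1 fit, and ran from 0 to 87 without single mice (87 without mouse D). The causes were not tested. Of the 9 genes in brain, Mag was called in 1 setting (no filter, log2 fold change -0.51) and no other was called in any. The offset put Cnp at 0.037 and Ermn at -0.29, on the other side of 0. With single mice left out, Mog ran from -0.093 to 0.17 and Ermn from -0.060 to 0.26 in brain, and in liver Mbp ran from -0.26 (without mouse A) to 0.72 (without E), Cnp from -0.056 (without E) to 0.21 (without B) and Myrf from 0.0061 (without C) to 0.3 (without F). In all, 111 of the values for the 9 genes in brain kept their direction and their side of the threshold, and 5 changed direction.

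In WT mice, brain against liver gave 13861 genes called, and 13588 with mouse as a replicate block, since the labels pair the tissues by mouse. The block changed no call among the 9 genes. The call of Myrf was lost in the 2 settings that left out mouse B or mouse E. The 9 genes had 135 to 31473 counts in a brain library, fewest for Opalin, while in liver 6 of the 9 genes had too few counts to be compared between genotypes.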

Other observations

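The genes whose log2 CPM over the 6 brain libraries lay closest to the mean of the 9 myelin genes were Nrm, Gm4705, Rad54l, Ermp1, Zfand2b, Klhl20, Tppp3 and Vamp1, with Pearson correlations from 0.979 for Vamp1 to 0.994 for Nrm over 6 libraries. The mean of the 9 genes was 6.48, 6.71 and 6.46 log2 CPM in WT brains B, D and E and 6.5, 6.54 and 6.30 in KO brains A, C and F. With 6 libraries and 17188 genes, values this high are a description of these libraries only.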
